A study of Mus musculus with 6 samples.

Results

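Muscle fibres sense load at the titin filament, at the Z-discs that anchor actin, and at the junctions where force leaves the fibre. A small set of proteins sits at these places: the muscle ankyrin repeat proteins Ankrd1, Ankrd2 and Ankrd23, which bind titin in the I-band and can also enter the nucleus; the muscle LIM protein Csrp3 of the Z-disc; the actin-binding Xin repeat proteins Xirp1 and Xirp2; the nebulin-related anchoring protein Nrap; and the muscle filamin Flnc. Several of these genes are known to be induced by stretch, unloading or damage of striated muscle. The 8 genes were taken by their symbols. All 8 were among the 23238 symbols in the count tables and all 8 passed the filter on low counts, which kept 11674 genes. No measured value was used to choose them by the rule itself.

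The mice were wild-type C57/BL6J animals aged 26 months, an age at which mouse muscle has lost mass and force. Farnesol was given orally at 350 mg/kg over 30 days in 1 group (3 libraries), and the other group had its vehicle, 5% DMSO in saline (3 libraries). Farnesol is a sesquiterpene alcohol, and the title of the study ties it to muscle weakness in ageing and to farnesylation of the substrate that interacts with Parkin. RNA came from the gastrocnemius, a calf muscle of mainly fast fibres,. The labels name a Lexogen Quant-Seq kit, a name used for tags from 3′ ends. The very long transcript of titin, Ttn, took 5.77% to 8.70% of the counts, and whether reads covered whole transcripts could not be settled from the tables. The labels call the libraries biological replicates but give neither the sex of the mice nor whether each library was 1 mouse, and p-values cover only the spread among these libraries. As bulk RNA, the libraries cannot separate fewer cells of a type from less RNA per cell.

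Libraries held 9895700 to 12707751 counts in the farnesol group and 10354759 to 11058539 in the vehicle group. Markers of muscle fibres (Acta1, Ckm, Myh4, Myh1, Tnnt3, Tnni2, Mylpf and Atp2a1) summed to 144702 to 157395 CPM (counts scaled to library sizes adjusted by edgeR's TMM factors) in the farnesol libraries and 115912 to 170745 CPM in the vehicle libraries, and none of the 8 markers was at 0. Of them 6 had a positive log2 fold change (median 0.08, but −0.09 without vehicle replicate 3 and −0.0099 without farnesol replicate 1). Vehicle replicate 3 was the library at 115912 CPM. It also had the largest TMM factor, 1.14, and the second lowest share of the ribosomal RNA precursor Rn45s, 9.92%. Farnesol replicate 1 stood apart as well. Rn45s took 4.97% of its counts against 9.92% to 15.4% in the other 5 libraries. Its deviations of log2 CPM from the mean of each gene had a Spearman correlation with transcript length of −0.24 across genes, against 0.02 to 0.10 in the others, where genes are not independent replicates.

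Because Ankrd1 is a textbook target of the TEAD factors that act with the mechanosensitive co-activators YAP and TAZ, the 250 bases before each start site were searched on both strands for the TEAD-binding MCAT core, spelled CATTCC. RefSeq (GRCm38.p6, the build of mm10) gave such windows for 7 of the 8 genes, 10 windows in all. The core was present in 3 of the 10 windows, each of a different gene. The 4 stretches of 30 bases are shown so that the copies can be compared, 5′ to 3′ on the strand of the gene with the core in capitals.
Ankrd1 at chr19:36120037-36120066, minus strand: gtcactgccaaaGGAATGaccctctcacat
Ankrd1 at chr19:36119950-36119979, minus strand: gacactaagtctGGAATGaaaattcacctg
Ankrd23 at chr1:36535842-36535871, minus strand: cccagtgggccaCATTCCcagaacggtatt
Flnc at chr6:29433140-29433169, plus strand: cgggccgggcggCATTCCtgggaggccggc
Both copies of Ankrd1 read GGAATG, the core on the opposite strand, and began at positions −210 and −123 counted from the start site. The copies of Ankrd23 and Flnc each lay in 1 of 2 windows of the gene, at −120 and −104 from the more downstream start. The Ankrd23 stretch lies inside the RefSeq span of the gene (36530193 to 36536556). The Flnc stretch contains the first base of the RefSeq span of Flnc (29433153). Of all 32851 windows of this length, 12.6% held the core.

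The Xin repeat gene Xirp2 was the only member, of the 7 with windows, whose window held the binding site of MEF2, a factor of muscle gene expression, and 2.92% of all windows did. The site began at −74 and is in capitals in the window of 250 bases before its start (chr2:67445752-67446001, plus strand), which is shown because Xirp2 gave the most counts of the 8 genes.
Xirp2: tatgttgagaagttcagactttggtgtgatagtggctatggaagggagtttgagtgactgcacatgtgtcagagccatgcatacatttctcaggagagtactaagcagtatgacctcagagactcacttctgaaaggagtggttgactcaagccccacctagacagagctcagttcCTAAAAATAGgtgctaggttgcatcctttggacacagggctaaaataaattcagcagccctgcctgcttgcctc
The E-box CANNTG stood in 7 of the 10 windows, from 6 of the genes, and in 66.2% of all windows. The serum response factor element known as the CArG box was in no window of the 7 genes and in 1.47% of all. The TATA box, searched as TATAAA, was in the window of Ankrd2 and in 12.4% of all. No match of 1 motif overlapped that of another in these windows. The matches are letters in a window and carry no measurement of binding.

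Farnesol was compared with vehicle to ask whether transcripts of these load-sensing proteins differ in aged muscle after feeding. A difference beyond the spread between libraries was found for none of the 8 genes. The farnesol mean was below the vehicle mean for 6 genes and above it for 2, and the farnesol and vehicle values overlapped for every gene. In edgeR's quasi-likelihood test with Benjamini-Hochberg adjustment over all genes tested, 0 of the 8 passed an adjusted p of 0.05, as did 0% of all genes. Each of the 8 had an adjusted p of 0.999989. At an unadjusted p under 0.05 the test held 0 of the 8, against 3.01% of all genes, 351 in number, with 1.75% higher and 1.26% lower. DESeq2 and limma-voom also called 0 genes over all. Values that did not overlap between the groups were found for 0 of the 8 genes, against 8.82% of all, with 4.75% higher and 4.07% lower. The median log2 fold change of the 8 was −0.14, against −0.01 over all genes tested. The 95% intervals of all 8 included no change.

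**Figure D1:**
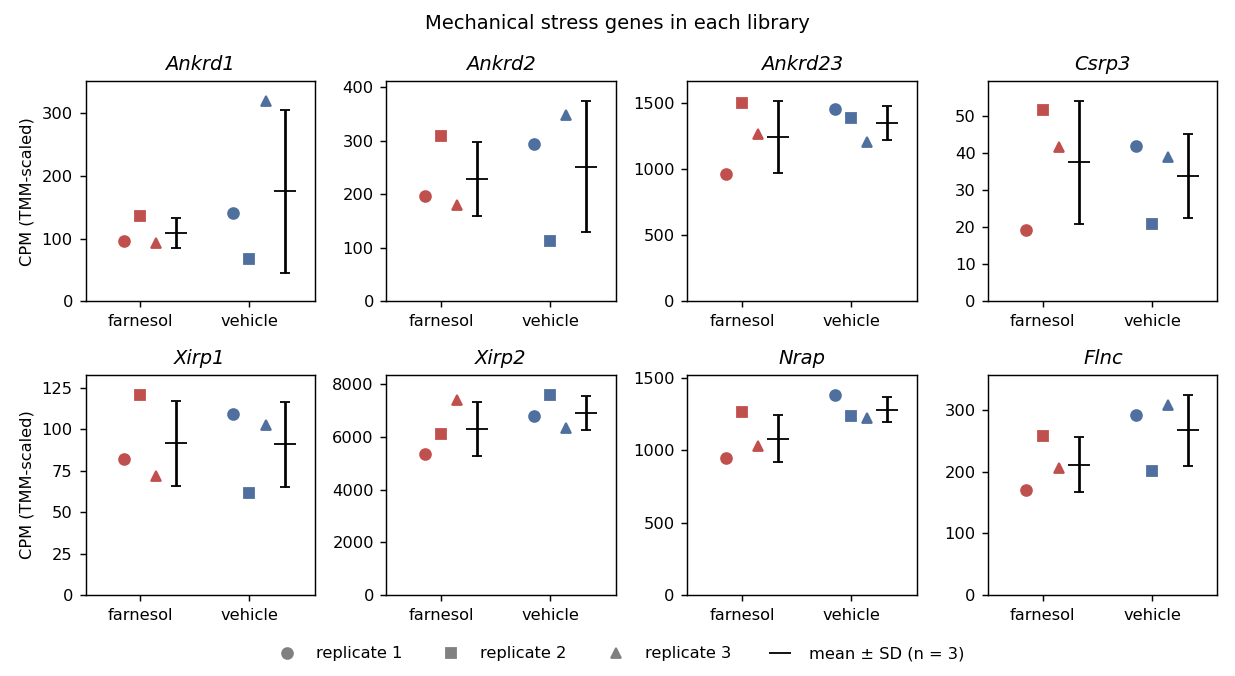
CPM on TMM-scaled library sizes for each of the 8 genes, with farnesol libraries in red on the left and vehicle libraries in blue on the right of each panel. Symbols mark the replicate number and the black bar the mean ± SD (n = 3 each). The groups overlap in all 8 panels, and the vehicle values of Ankrd1 run from 67.1 to 319 CPM.

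The ankyrin repeat proteins of the titin I-band differed in how steady they were. Ankrd1 (CARP; chromosome 19, 36111965 to 36119844, minus strand) is a transcriptional cofactor of heart that is low in resting limb muscle and induced by its injury or denervation. It stood at 97.0, 137 and 92.5 CPM in farnesol libraries 1, 2 and 3, against 140, 67.1 and 319 CPM in vehicle libraries 1, 2 and 3. All 3 farnesol values lay inside the range of the vehicle values, which differed 4.76-fold among themselves and 1.48-fold in the farnesol group. The log2 fold change was −0.69 (SE 0.62), a fold of 0.619 with a 95% interval of 0.201 to 1.90. The direction rested on vehicle replicate 3, the library low in fibre markers, without which the log2 fold change was 0.069, and without vehicle replicate 2 it was −1.08. Under limma-voom, which works on log values, it was −0.44.

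Ankrd2 (Arpp; chromosome 19, 42035917 to 42045111, plus strand) is the family member of slow fibres, and its transcript is known to rise with stretch. Farnesol libraries 1, 2 and 3 had 196, 309 and 181 CPM, against 294, 114 and 348 CPM in vehicle libraries 1, 2 and 3. Vehicle replicate 2 was the lowest and vehicle replicate 3 the highest of all 6, as for Ankrd1. The log2 fold change was −0.14 (SE 0.47), with an interval for the fold of 0.396 to 2.09. It was 0.17 without vehicle replicate 3, −0.49 without vehicle replicate 2 and 0.0032 without farnesol replicate 3.

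Ankrd23 (DARP; chromosome 1, 36530193 to 36536556, minus strand), named for its link to diabetes, was far steadier. It had 959, 1500 and 1268 CPM in farnesol libraries 1, 2 and 3, against 1455, 1388 and 1207 CPM in vehicle libraries 1, 2 and 3. Both its highest and its lowest value were in the farnesol group. Its log2 fold change was −0.12 (SE 0.17), a fold of 0.920 with an interval of 0.721 to 1.18. Without farnesol replicate 1, its lowest library, the log2 fold change was 0.035.

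Csrp3 (chromosome 7, 48830398 to 48848051, minus strand) encodes the muscle LIM protein, a Z-disc partner of alpha-actinin and telethonin that slow fibres and heart hold in large amount. It had 19.2, 51.5 and 41.5 CPM in farnesol libraries 1, 2 and 3, against 41.8, 20.8 and 38.8 CPM in vehicle libraries 1, 2 and 3. In each group 1 library was low, at 19.2 CPM in farnesol and 20.8 CPM in vehicle, and the other 2 held at least 38.8 CPM. The estimate of the log2 fold change was 0.14 (SE 0.37), with an interval for the fold of 0.613 to 1.99. It was 0.46 without farnesol replicate 1, −0.16 without farnesol replicate 2 and −0.11 without vehicle replicate 2. Csrp3 was the least counted of the 8 genes, with 206 to 615 counts per library. The counting error at 206 counts is 6.97%, while the coefficient of variation was 44.2% in the farnesol group and 33.5% in the vehicle group.

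The Xin proteins bind actin filaments by repeats and gather at myotendinous junctions and, in heart, at intercalated discs. Xirp1 (Xin; chromosome 9, 120013755 to 120023598, minus strand), which marks sites of fibre damage, had 81.9, 121 and 71.7 CPM in farnesol libraries 1, 2 and 3, against 109, 61.6 and 102 CPM in vehicle libraries 1, 2 and 3. The group means were 91.4 ± 25.8 CPM in farnesol and 91.0 ± 25.7 CPM in vehicle libraries (SD, n = 3 each). On the log2 scale the fold change was 0.01 (SE 0.22), with an interval for the fold of 0.725 to 1.39. It was −0.25 without farnesol replicate 2 and −0.21 without vehicle replicate 2, the libraries with its highest and lowest values.

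Xirp2 (chromosome 2, 67446000 to 67526620, plus strand), also known as myomaxin and a partner of alpha-actinin, took 0.577% to 0.726% of the counts of a farnesol library and 0.641% to 0.722% of those of a vehicle library. It had 5367, 6135 and 7416 CPM in farnesol libraries 1, 2 and 3, against 6794, 7604 and 6336 CPM in vehicle libraries 1, 2 and 3. Farnesol replicates 1 and 2 lay below every vehicle library and farnesol replicate 3 below 1 of the 3. Farnesol over vehicle, the log2 fold change was −0.13 (SE 0.18), a fold of 0.912 with an interval of 0.707 to 1.18. It was −0.03 without farnesol replicate 1 and −0.27 without farnesol replicate 3.

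Nrap and Flnc were the 2 members with the smallest unadjusted p. Nrap (chromosome 19, 56320037 to 56390062, minus strand) is a scaffold on which actin filaments join alpha-actinin in forming myofibrils. It had 948, 1261 and 1027 CPM in farnesol libraries 1, 2 and 3, against 1382, 1237 and 1222 CPM in vehicle libraries 1, 2 and 3. Farnesol replicates 1 and 3 lay below all vehicle libraries, and farnesol replicate 2 lay above vehicle replicates 2 and 3. The log2 fold change was −0.25 (SE 0.16, unadjusted p = 0.129 in edgeR), a fold of 0.842 with an interval of 0.672 to 1.06. With each library left out it ran from −0.38 without farnesol replicate 2 to −0.16 without farnesol replicate 1.

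The 3′ end of Nrap overlaps that of Habp2 by 788 bases on the opposite strand. The protease gene Habp2, which liver expresses, was listed with 1995 to 5031 counts in the farnesol libraries and 2716 to 3981 in the vehicle libraries. Its counts were 18.6%, 33.4% and 20.5% of those of Nrap in farnesol libraries 1, 2 and 3, against 25.5%, 32.6% and 18.8% in vehicle libraries 1, 2 and 3. Strands were not separated in these tables, since counts of Tsix, antisense to Xist, came to 95.9% to 99.0% of those of Xist. Reads in the overlap can therefore not be assigned to 1 of the 2 genes.

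Flnc (chromosome 6, 29433153 to 29461889, plus strand) encodes the filamin of striated muscle, which links actin at the Z-disc and is recruited to small lesions of the myofibril. It had 171, 259 and 206 CPM in farnesol libraries 1, 2 and 3, against 292, 201 and 308 CPM in vehicle libraries 1, 2 and 3. Farnesol replicate 1 lay below all vehicle libraries, and the other 2 farnesol libraries lay between vehicle replicate 2 and the other vehicle libraries. The log2 fold change was −0.34 (SE 0.18, unadjusted p = 0.0756 in edgeR), a fold of 0.792 with an interval of 0.612 to 1.03. It ran from −0.51 without farnesol replicate 2 to −0.20 without farnesol replicate 1. Its non-muscle relative Flna stood at 21.8 ± 3.71 CPM in farnesol and 28.3 ± 4.43 CPM in vehicle libraries (log2 fold change −0.38, SE 0.21).

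**Figure D2:**
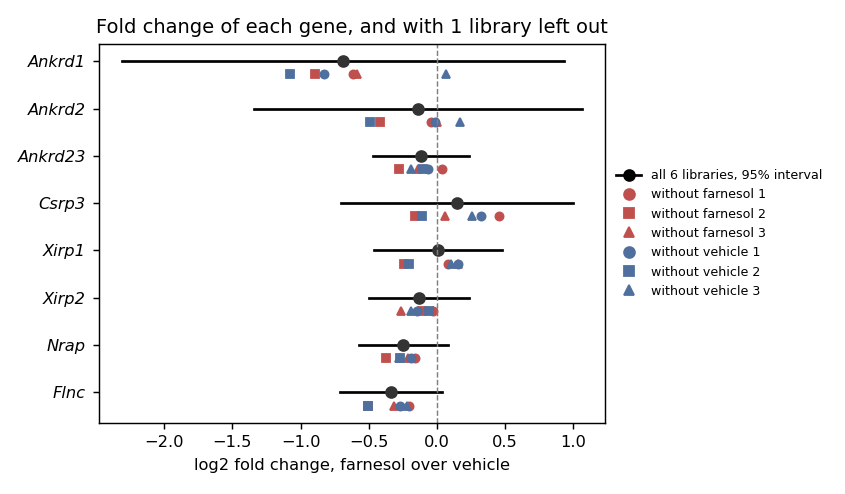
Log2 fold change of farnesol over vehicle for each gene on the horizontal axis. Black points with bars are the estimate from all 6 libraries with its 95% interval, and coloured symbols below each bar are the estimates with 1 library left out. All 8 bars cross 0, the bar of Ankrd1 is the longest, and for 5 of the 8 genes at least 1 left-out library puts the estimate on the other side of 0.

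The 8 genes ranged widely in their spread between libraries of 1 group. Among the 4250 genes with a mean of at least 20 CPM, the SD of log2 CPM within groups had a median of 0.21. Ankrd1 had an SD of 0.82, above that of 99.7% of these genes. Ankrd2 had 0.68 (above 99.3%), Csrp3 0.65 (above 99.1%) and Xirp1 0.42 (above 94.3%). Flnc had 0.32 (above 83.4%) and Ankrd23 0.25 (above 66.9%). Xirp2 (0.19, above 43.0%) and Nrap (0.17, above 30.5%) lay below the median. Counting error was at most 6.97% for any member in any library and at most 3.88% for Ankrd1.

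**Figure D3:**
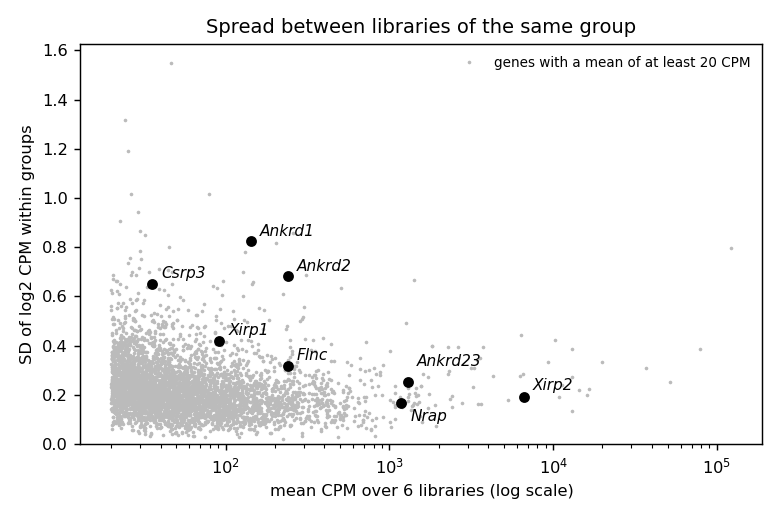
SD of log2 CPM within groups, pooled over the farnesol and vehicle groups, against the mean CPM over 6 libraries on a log scale. Grey points are the 4250 genes with a mean of at least 20 CPM and black points the 8 genes. Ankrd1, Ankrd2 and Csrp3 lie at 0.82, 0.68 and 0.65, near the top of the plotted genes, and Xirp2 and Nrap at 0.19 and 0.17.

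The deviations had the same sign for all 8 genes in some libraries and not in others. In farnesol replicate 1 all 8 genes lay below their own mean over the 6 libraries, by 0.12 (Xirp1) to 0.79 (Csrp3) on the log2 scale, and this library was the lowest of the 6 for 5 genes. In farnesol replicate 2, 7 of the 8 lay above, with Xirp2 the exception, and in farnesol replicate 3 only Csrp3 and Xirp2 did. In vehicle replicate 1 all 8 lay above their mean. Vehicle replicate 2 was the lowest library for Ankrd1, Ankrd2 and Xirp1 and also low for Csrp3 and Flnc, while Xirp2 was at its highest there and Ankrd23 and Nrap lay above their mean. In vehicle replicate 3, 6 of the 8 lay above. In farnesol replicate 1, the library whose deviations fell with transcript length, the long transcripts of Xirp2 (11979 bases), Flnc (9038 bases), Xirp1 (5839 bases) and Nrap (5501 bases) deviated by −0.29, −0.46, −0.12 and −0.30. The shorter ones of Csrp3 (2433 bases), Ankrd23 (2277 bases), Ankrd1 (2020 bases) and Ankrd2 (1138 bases) deviated by −0.79, −0.42, −0.36 and −0.19. The part of library make-up in these deviations was not tested.

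**Figure D4:**
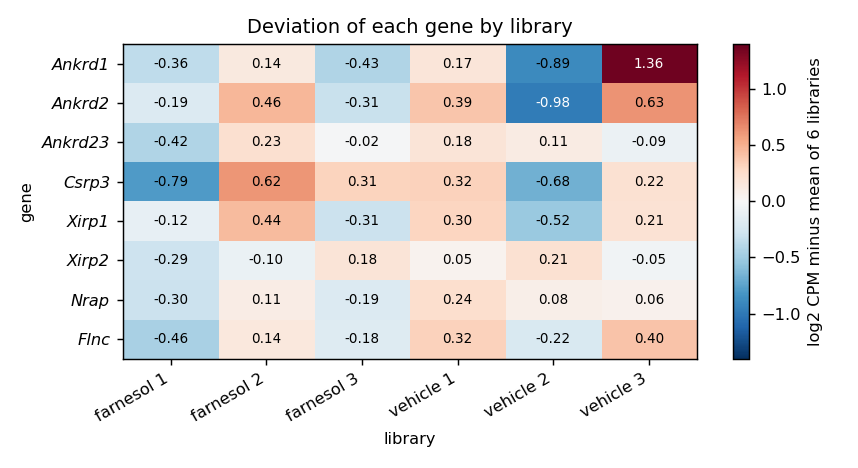
Log2 CPM of each gene (rows) in each library (columns, farnesol left and vehicle right) minus the mean of the 6 libraries, with red for higher and blue for lower. The column of farnesol replicate 1 is negative in all 8 rows and that of vehicle replicate 1 positive in all 8. The darkest cells are Ankrd1 at 1.36 in vehicle replicate 3 and Ankrd2 at −0.98 in vehicle replicate 2.

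Other genes were searched for the pattern of the 2 members with the widest range over the libraries, Ankrd1 and Ankrd2, by the root-mean-square difference of centred log2 CPM over the 6 libraries among 4116 genes. The nearest to Ankrd1 were the actin-severing cofilin Cfl1 (0.35), Aif1l, an actin-binding relative of allograft inflammatory factor (0.35), and the secreted protease Adamts1 (0.36). Cfl1 had 20.2, 19.6 and 18.1 CPM in farnesol libraries 1, 2 and 3, against 18.2, 12.3 and 33.9 CPM in vehicle libraries 1, 2 and 3. The nearest to Ankrd2 were Klf2, a transcription factor induced by flow in endothelium (0.24), Ptpn14, a phosphatase that restrains YAP (0.27), and Aif1l (0.31). The difference between Ankrd1 and Ankrd2 themselves was 0.35, and Xirp1 was the member nearest to Ankrd2 (0.26). These distances are a description, with no test.

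Levels of different genes were set side by side per length, as the median CPM per kilobase of the longest GENCODE transcript over the 6 libraries. If the reads were tags from 3′ ends, counts would not grow with length and this scale would understate long transcripts. The order below thus depends on a point that was not settled. In plain CPM, Xirp2 had means of 6306 in farnesol and 6912 in vehicle libraries, against 1242 and 1350 for Ankrd23. Ankrd23 (583 CPM per kilobase) and Xirp2 (548) came first and their ranges overlapped. They were followed by Nrap (224), whose range lay wholly below that of Xirp2, and by Ankrd2 (215), Ankrd1 (57.8), Flnc (25.7), Csrp3 (16.5) and Xirp1 (15.8). The ranges of all neighbours in this order other than Xirp2 and Nrap overlapped. The 8 genes summed to 0.932% ± 0.0708 of a farnesol library and 1.03% ± 0.0859 of a vehicle library (SD, n = 3 each).

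Genes of the surrounding machinery were described from 12 lists, in none of which a gene passed over all genes (0% of all genes did). The genes named were among those of smallest unadjusted p in their list. Over all genes tested, the groups did not overlap for 8.82%. The titin complex that holds the ankyrin repeat proteins, with telethonin, calpain 3 and the MuRF ligases, had 6 of 18 tested genes with a positive and 12 with a negative log2 fold change, and a median of −0.04. Fhl1, a LIM protein that binds titin, was at 390 ± 45.4 CPM in farnesol and 316 ± 22.0 CPM in vehicle libraries (log2 fold change 0.30, SE 0.15), and its groups did not overlap. The ligase Trim63 (MuRF1) was at 880 ± 183 CPM in farnesol and 1142 ± 312 CPM in vehicle libraries (−0.38, SE 0.20). Z-disc proteins split into 11 positive and 10 negative of 21, with a median of 0.01. Des, the intermediate filament desmin, stood at 2143 ± 339 CPM in farnesol and 2521 ± 231 CPM in vehicle libraries (−0.23, SE 0.17). Myoz2, the calcineurin-binding calsarcin of slow fibres, stood at 173 ± 26.6 CPM in farnesol and 145 ± 5.05 CPM in vehicle libraries (0.25, SE 0.15). The groups of Myoz2 also did not overlap.

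Partners of Flnc in chaperone-assisted repair of the Z-disc had 6 positive and 10 negative of 16, with a median of −0.08. The small heat shock protein Hspb1 was at 739 ± 68.5 CPM in farnesol and 880 ± 228 CPM in vehicle libraries (log2 fold change −0.25, SE 0.18). Adhesion and junction partners of Xin and Nrap had 9 positive and 12 negative of 21, with a median of −0.02. Vcl, the actin linker vinculin, was at 28.2 ± 5.17 CPM in farnesol and 22.4 ± 2.51 CPM in vehicle libraries (0.33, SE 0.21), and Vasp, which promotes growth of actin filaments, at 7.14 ± 0.374 CPM in farnesol and 10.2 ± 0.815 CPM in vehicle libraries (−0.51, SE 0.29). The groups of both genes did not overlap, which was so for 8.82% of all genes tested. Nebulin, filamin, CSRP and leiomodin relatives had 2 positive and 7 negative of 9, with a median of −0.12, and nebulin itself, Neb, was at 15328 ± 2317 CPM in farnesol and 16776 ± 1898 CPM in vehicle libraries (−0.13, SE 0.19).

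Of the signalling genes, YAP and TEAD components and targets had 11 positive and 8 negative of 19, with a median of 0.05. Amotl2, an angiomotin that is both a target and an inhibitor of YAP, was at 11.2, 15.9 and 7.33 CPM in farnesol libraries 1, 2 and 3, against 17.2, 16.4 and 18.6 CPM in vehicle libraries 1, 2 and 3. Its groups did not overlap (log2 fold change −0.60, SE 0.27, adjusted p = 0.999989 in edgeR), which was so for 8.82% of all genes tested. Genes of the serum response factor pathway had 11 positive and 5 negative of 16, with a median of 0.08, and Jun, a subunit of the AP-1 factor, stood at 142 ± 15.5 CPM in farnesol and 190 ± 28.5 CPM in vehicle libraries (−0.41, SE 0.16). In the same list Atf3 (0.75, SE 0.41) and Egr1 (0.55, SE 0.35) were positive, and Mkl2 (−0.23, SE 0.19) was negative like Jun. Regulators that Ankrd1 or Ankrd2 are known to contact or to influence had 6 positive and 8 negative of 14, with a median of −0.06. Among them the NF-κB subunit Nfkb2 was at 36.5 ± 10.1 CPM in farnesol and 23.0 ± 1.23 CPM in vehicle libraries (0.67, SE 0.21), the groups not overlapping. The subunit Nfkb1 lay the other way, at 3.49 ± 0.355 CPM in farnesol and 4.64 ± 0.419 CPM in vehicle libraries (−0.41, SE 0.40), also without overlap, and the inhibitor Nfkbia was at 120 ± 23.6 CPM in farnesol and 144 ± 17.2 CPM in vehicle libraries (−0.26, SE 0.17). Growth and stretch signals had 5 positive and 14 negative of 19, with a median of −0.04, and the stretch-gated channel Piezo1 was at 17.9 ± 6.24 CPM in farnesol and 22.2 ± 2.48 CPM in vehicle libraries (−0.31, SE 0.25).

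Fibre type and denervation were looked at because Ankrd2 and Csrp3 are genes of slow fibres and Ankrd1 is induced by loss of the nerve. Slow fibre genes had 12 positive and 2 negative of 14, with a median of 0.24, and fast fibre genes 11 positive and 4 negative of 15, with a median of 0.09. Of all genes tested 49.1% were positive. The slow fibre genes Sln (log2 fold change 0.97) and Myl2 (0.43) were higher at an unadjusted edgeR p under 0.05, as were 1.75% of all genes. The slow fibre median was 0.04 without farnesol replicate 2 and 0.11 without vehicle replicate 3, and the fast fibre median was −0.08 without vehicle replicate 3 and 0.0028 without farnesol replicate 1. Mean deviations of the slow fibre genes were −0.13, 0.39 and 0.10 in farnesol libraries 1, 2 and 3, against −0.0027, −0.04 and −0.32 in vehicle libraries 1, 2 and 3. Those of the fast fibre genes were 0.10, 0.08 and −0.03 in farnesol libraries 1, 2 and 3, against 0.15, 0.16 and −0.45 in vehicle libraries 1, 2 and 3. Vehicle replicate 3, which had the highest Ankrd1 and Ankrd2, was thus the lowest for fibre genes of both types. The fast fibre list shares Myh4, Myh1, Tnnt3, Tnni2, Mylpf and Atp2a1 with the markers of muscle fibres, so their low values in this library are not independent. Farnesol replicate 2, with the highest Csrp3, was the highest for slow fibre genes.

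Denervation and regeneration genes (among them acetylcholine receptor subunits, Myog and Runx1) had 8 positive and 10 negative of 18, with a median of −0.08, which was 0.10 without vehicle replicate 3, 0.12 without farnesol replicate 1 and 0.03 without vehicle replicate 1. Their mean deviations were −0.26, 0.17 and 0.10 in farnesol libraries 1, 2 and 3, against 0.12, −0.41 and 0.28 in vehicle libraries 1, 2 and 3. Those of the 8 mechanical stress genes were −0.37, 0.26 and −0.12 in farnesol libraries 1, 2 and 3, against 0.25, −0.36 and 0.34 in vehicle libraries 1, 2 and 3. By this mean, in which each gene has equal weight, farnesol replicate 1 and vehicle replicate 2 were the lowest libraries for both lists and vehicle replicate 3 the highest. Summed CPM, which abundant genes set, gave another order. Vehicle replicate 2 was then the highest library for the 8 genes (10694 CPM) and for the denervation and regeneration genes (2213 CPM), and vehicle replicate 3 stood at 9882 and 1412 CPM. Parts of the order by mean deviation were also seen in other lists. Chaperone-assisted repair genes were lowest in vehicle replicate 2 (−0.18) and highest in vehicle replicate 3 (0.19). Nebulin, filamin, CSRP and leiomodin relatives were lowest in farnesol replicate 1 (−0.12) and highest in vehicle replicate 3 (0.17). Slow and fast fibre genes went the other way, with their lowest mean in vehicle replicate 3.

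**Figure D5:**
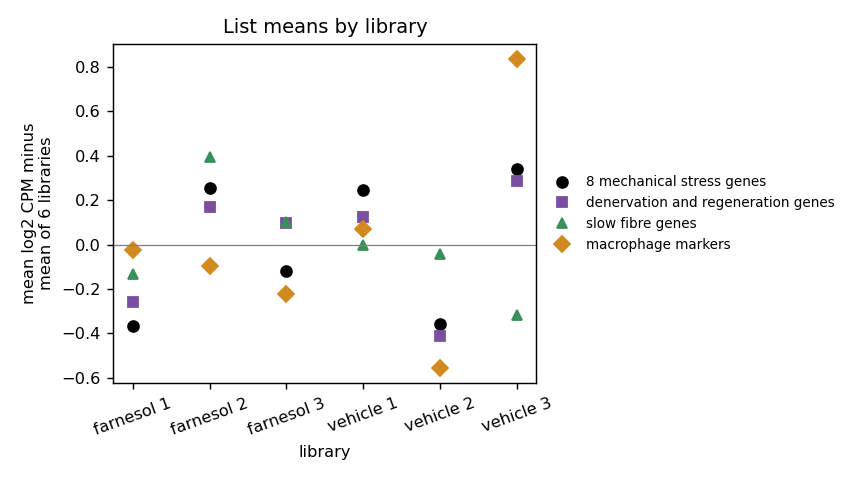
Mean log2 CPM minus the mean of the 6 libraries for 4 lists of genes, in farnesol libraries (left) and vehicle libraries (right), each symbol the mean over the tested genes of a list in 1 library. The 8 mechanical stress genes (black circles) and the denervation and regeneration genes (purple squares) share their lowest 2 libraries, farnesol replicate 1 and vehicle replicate 2, and their highest, vehicle replicate 3. Other lists shared parts of this order.

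Among markers of other cell types, 0 passed the threshold of edgeR's adjusted p. All 8 adipocyte markers had positive log2 fold changes (median 0.66), 4 of them at an unadjusted p under 0.05, and they summed to 324 to 494 CPM in farnesol and 221 to 405 CPM in vehicle libraries. Of all genes tested 49.1% had a positive fold change and 1.75% were higher at that p. Erythroid markers, 5 of 6 positive (median 0.49) and 4 at an unadjusted p under 0.05, summed to 5472 to 9725 CPM in farnesol and 3500 to 5683 CPM in vehicle libraries. Macrophage markers, 1 of 8 positive (median −0.25), summed to 116 to 152 CPM in farnesol and 89.7 to 224 CPM in vehicle libraries, with the highest mean deviation (0.83) in vehicle replicate 3 and the lowest (−0.55) in vehicle replicate 2, the highest and lowest libraries for Ankrd1. Leaving out vehicle replicate 3 turned their median to 0.28, and leaving out vehicle replicate 2 gave −0.52. Tendon and myotendinous junction markers, 5 of 8 tested positive (median 0.13), summed to 193 to 241 CPM in farnesol and 168 to 213 CPM in vehicle libraries, and Mkx was at 0 in at least 1 library. Their median was −0.02 without vehicle replicate 3 and −0.06 without farnesol replicate 1. Endothelial (4 of 8 positive), smooth muscle (4 of 8), fibroblast (4 of 6), Schwann cell (5 of 6) and satellite cell markers (0 of 4) had medians of −0.0017, 0.02, 0.06, 0.18 and −0.10. No other marker was at 0 in any library. At an unadjusted p under 0.05 stood 1 gene each of the macrophage (Adgre1, log2 fold change −1.04), tendon (Tppp3, 0.93) and Schwann cell lists (Mbp, 0.54). The part of these cells in the values of the 8 genes was not tested.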

How the data were processed

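Total RNA of the gastrocnemius (500 ng) went into libraries made with a Lexogen Quant-Seq kit, per the labels' protocols. The authors deposited raw counts of reads for each gene symbol, with a table for every library. The submitters' processing notes name Bowtie2, bedtools and mm10. Versions, annotation and any use of strand were not given in the sources used here. Each table listed 23282 features. The counts of 35 symbols on more than 1 line were summed, none of them a member. Counting errors cover counting error only, not the spread between libraries.

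Genes were tested with edgeR 4.0.16 (R 4.3.3), using filterByExpr by group, TMM factors (0.905 to 1.14), estimateDisp and glmQLFit with robust = TRUE, glmQLFTest, and Benjamini-Hochberg adjustment over 11674 genes at 0.05. The common biological coefficient of variation was 25.7%. The fit was also run on simulated counts drawn with the same dispersion for every gene. That setting does not cover members with a wide spread such as Ankrd1. Standard errors came from dividing the size of the log2 fold change by the root of F, and 95% intervals from a t distribution with the degrees of freedom of the fit. Deviations use log2 CPM with a prior count of 2. Alternatives were RLE and upper-quartile factors, no Rn45s, no filter, a filter of 5 CPM, DESeq2 1.42.0, voom of limma 3.58.1, robust = FALSE, a replicate block and each library left out.

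The members and lists were chosen with earlier results of these data known. Named beside the 8 members were up to 4 genes per list of smallest unadjusted p, not all printed, and the 3 genes nearest in pattern to each of the 2 members of widest range. Positions are 1-based, from RefSeq GRCm38.p6. Transcript lengths, from GENCODE vM21, matched 96.3% of tested genes. The values of 1 gene of the denervation list are not reported here.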

Additional observations from a re-analysis of the deposited data

How the results depend on the processing

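No member passed the threshold under any alternative, where the smallest adjusted p was 0.968. Some members did reach an unadjusted edgeR p under 0.05. Flnc had 0.0335 without the filter on low counts, with 633 genes under 0.05. Without vehicle replicate 2, Ankrd1 had 0.0078, Ankrd2 0.0248 and Flnc 0.0105, with 460 genes under 0.05. Without farnesol replicate 2, Nrap had 0.045 and Flnc 0.0179, with 410 genes under 0.05. The main fit had 351 genes under 0.05. Genes tested can differ in number between these settings, and the shares under 0.05 were not computed for the alternatives. With robust = FALSE the SE of Ankrd1 was 0.34, against 0.62 with robust = TRUE. Under the 9 alternatives that kept all 6 libraries, 0 of 72 log2 fold changes changed sign. With 1 library left out, 8 of 48 did, in 5 genes. The ranges with 1 library left out were −1.08 to 0.069 for Ankrd1, −0.49 to 0.17 for Ankrd2, −0.28 to 0.035 for Ankrd23, −0.16 to 0.46 for Csrp3, −0.25 to 0.16 for Xirp1, −0.27 to −0.03 for Xirp2, −0.38 to −0.16 for Nrap and −0.51 to −0.20 for Flnc. The sign changes were Ankrd1 (0.069) and Ankrd2 (0.17) without vehicle replicate 3, Ankrd2 (0.0032) without farnesol replicate 3, Ankrd23 (0.035) without farnesol replicate 1, Csrp3 (−0.16) and Xirp1 (−0.25) without farnesol replicate 2, and Csrp3 (−0.11) and Xirp1 (−0.21) without vehicle replicate 2. The cause was not tested. Over all genes edgeR called 0, against 13 without the filter on low counts and 0 to 3 with 1 library left out, the 3 without vehicle replicate 2. None of the 8 was among them. Libraries with the same replicate number in the sample titles deviated together at correlations of 0.04, 0.06 and −0.02 across genes, and not every library correlated best with its own number, so the numbers were not taken to pair them. The headings of the count columns number the libraries differently: replicates 2 and 3 of both groups share a number there, and replicates 1 do not. With the replicate block 0 genes were called, 428 had an unadjusted p under 0.05, and the log2 fold changes were −0.45 for Ankrd1, −0.26 for Nrap and −0.33 for Flnc. Of 242 list medians under the alternatives, 7 moved by more than the spread between libraries, and the median of 16 of the 22 lists changed sign with at least 1 library left out.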

Other observations

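The counts of Habp2, whose 3′ end overlaps that of Nrap, did not keep 1 ratio to those of Nrap. They came to 33.4% in farnesol replicate 2 and 32.6% in vehicle replicate 2, of the Nrap count, against 18.6% to 25.5% in the other 4 libraries. Cx3cr1, a macrophage receptor gene whose GENCODE span holds all of Xirp1 on the same strand, was listed with 4 to 19 counts over the 6 libraries, while Xirp1 had 695 to 1442 counts in farnesol and 609 to 1208 counts in vehicle libraries.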
